A study of Macaca mulatta with 18 samples.

Results

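The 10 genes described here encode antioxidant enzymes and were chosen by name: the superoxide dismutases SOD1, SOD2 and SOD3, catalase (CAT), the glutathione peroxidases GPX1, GPX3 and GPX4, the glutathione transferase GSTM3, peroxiredoxin 6 (PRDX6) and thioredoxin reductase (TXNRD1). A row was taken where the gene column of the deposited table equalled one of these names, and each gene found had 1 row. Of the 10 genes, 9 had a row among the 30246 genes of the cerebellum (CER) and prefrontal cortex (PFC) tables and the 30245 of the striatum (STR) table, and 7 of the 9 had a value above 0. The study asked whether gene expression in the brain differs between rhesus monkeys (Macaca mulatta) of Chinese and of Indian origin. RNA was sequenced from the CER, STR and PFC of 3 Chinese-origin monkeys (10.5, 11 and 11.5 years old) and 3 Indian-origin monkeys (7.5, 15 and 16 years old), which makes 18 libraries. All monkeys ate a stock diet with fruits and vegetables, and the labels name no treatment. By the study's methods the Chinese-origin monkeys came to the primate center as young adults, whereas those of Indian origin were born there, so origin and early environment cannot be told apart.

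Superoxide dismutases turn superoxide into hydrogen peroxide, which catalase, glutathione peroxidases and peroxiredoxins then reduce to water. Glutathione peroxidases draw their electrons from glutathione and most peroxiredoxins from thioredoxin, which thioredoxin reductase keeps reduced. The enzymes are spread over the compartments of the cell: SOD1 is mainly cytosolic, SOD2 mitochondrial and SOD3 secreted, while catalase is peroxisomal. The brain consumes much oxygen and is rich in polyunsaturated lipids, and its catalase level is known to be low beside that of liver.

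The values are FPKM, a read count scaled by exon length and library size, which Cuffdiff pooled over the 3 monkeys of an origin, so that each gene has 6 values in all, 1 for each origin and region. No value per monkey and no count was analysed here. The study gives read numbers as means over an origin and region, which were not used here, but the reads behind a gene's value and the spread between monkeys in it are unknown. No difference below has a replicate check, and no test was run. Differences are log2 ratios of Chinese-origin over Indian-origin FPKM after addition of 0.1 to each value, for genes that reached an FPKM of 1 in any of the values compared. Chinese CER stands for CER of Chinese-origin monkeys, and the other groups are named likewise. Past the fold means a ratio of at least 1.5 in either direction. Over all genes the median log2 ratio was not 0 but 0.10 in CER, 0.31 in STR and 0.19 in PFC, so the values of the 7 enzymes measured, and those of the other genes where stated, are also given relative to that median. The dissections matched their labels. GABRA6, a receptor subunit of cerebellar granule cells, had a pooled FPKM of 572.3 in Chinese CER against 541.0 in Indian CER, and its highest value elsewhere was 0.179. DRD1, a dopamine receptor of striatal projection neurons, had 75.6 in Chinese STR against 62.5 in Indian STR, and SLC17A7, the vesicular glutamate transporter, had 405.9 in Chinese PFC against 350.7 in Indian PFC. These 3 markers were named after their values were seen.

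SOD2, the manganese enzyme of mitochondria, and TXNRD1 were listed at 0 in both origins and all 3 regions, and GPX3, a secreted plasma peroxidase, had no row. Both genes at 0 lie on unplaced scaffolds of the mmul1 build, SOD2 (ENSMMUG00000005885) on scaffold 1099214733350 from 949 to 2710 and TXNRD1 (ENSMMUG00000012091) on scaffold 1099214740908 from 17283 to 85890. All 1613 genes on unplaced scaffolds were at 0 in every region, against 22475 of 28633 placed genes with a value above 0 in CER. The value of 0 thus applies to the scaffolds as a whole, and nothing can be said about the expression of SOD2 and TXNRD1. PRDX5, another member of the peroxiredoxin family, was at 0 for both origins in the same way.

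The other 7 genes fell into a group of high and a group of low FPKM. SOD1 (ENSMMUG00000001711, chromosome 3 from 14840402 to 14849599), the cytosolic copper-zinc enzyme, had the highest level of the 7 in each region and origin. Its pooled FPKM was 596.6 in Chinese CER against 565.2 in Indian CER, 579.6 in Chinese STR against 535.4 in Indian STR, and 610.2 in Chinese PFC against 499.0 in Indian PFC. Between 98.6% and 98.8% of the genes with an FPKM of 1 or more lay below it, depending on the group. SOD1 was also the steadiest of the 7, with its highest value 1.22 times its lowest. GPX4 (ENSMMUG00000028946, chromosome 19 from 814061 to 857522), which reduces lipid hydroperoxides in membranes and restrains ferroptosis, lay between 173.4 and 265.2. PRDX6 (ENSMMUG00000008776, chromosome 1 from 203122746 to 203133352), a peroxiredoxin that uses glutathione and also acts on phospholipids, lay between 127.5 and 188.1. GSTM3 (ENSMMUG00000008029, chromosome 1 from 112800848 to 112804854), a mu-class transferase that conjugates glutathione to reactive compounds and in humans is prominent in brain and testis, lay between 111.3 and 307.0.

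GPX1, CAT and SOD3 had FPKM values at least 14.5 times lower than that of SOD1 in every group. GPX1 (ENSMMUG00000012963, chromosome 2 from 87082449 to 87083552), the selenoenzyme of cytosol and mitochondria, lay between 11.1 and 40.5. CAT (ENSMMUG00000002429, chromosome 14 from 37354972 to 37391300) lay between 9.50 and 16.5. SOD3 (ENSMMUG00000002612, chromosome 5 from 19563043 to 19563766), which binds to the extracellular matrix, lay between 5.20 and 16.7. In STR and PFC of both origins the order from high to low was SOD1, GPX4, PRDX6, GSTM3, GPX1, CAT and SOD3, and in CER GSTM3 came second. In Chinese CER SOD3 was the lowest of the 7, whereas in Indian CER it stood above GPX1 and CAT. Neighbours in this order, such as PRDX6 at 149.3 and GSTM3 at 146.6 in Chinese PFC, cannot be separated without a spread. The row of GPX4 spans 43462 bases that it shares with POLR2E and HMHA1, and that of SOD1 overlaps the small RNA gene SNORA81. The study's methods name a TruSeq RNA kit and the default settings of TopHat, and neither the name nor those settings mark strand, so the values of these overlapping genes are less certain.

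**Figure D1:**
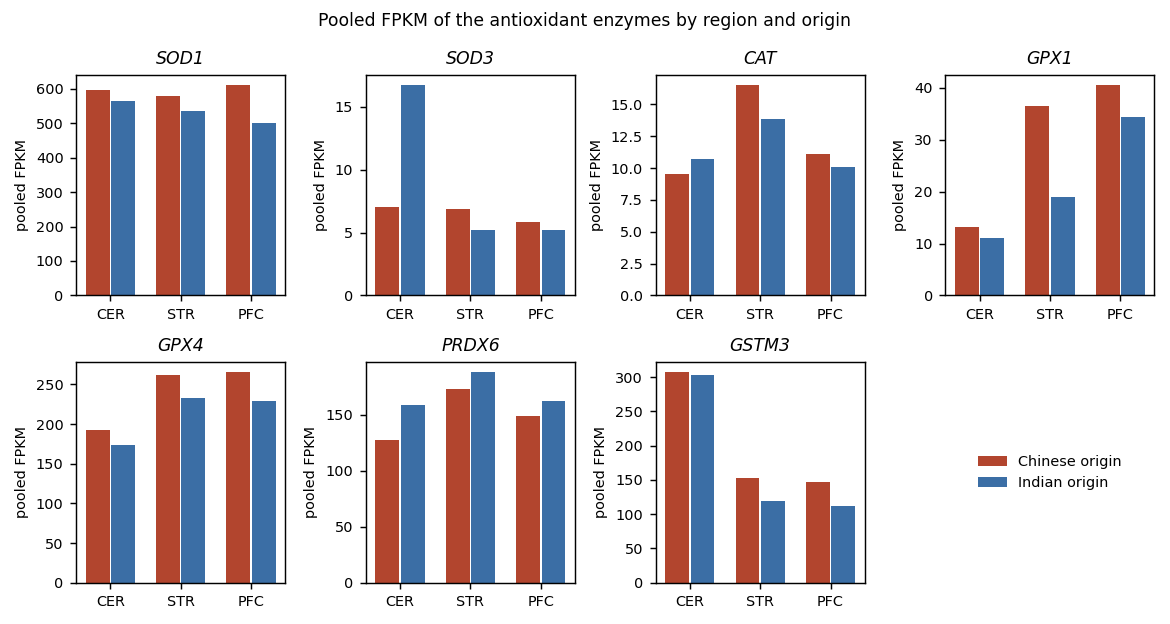
Pooled FPKM (vertical axes, from 0, a scale for each gene) of the 7 antioxidant enzymes with values above 0 in CER, STR and PFC, Chinese origin in red and Indian origin in blue, with 1 pooled value per bar and no error bars because values per monkey were not analysed. SOD3 stands at 7.02 in Chinese CER against 16.7 in Indian CER, GPX1 at 36.4 in Chinese STR against 18.9 in Indian STR, and GSTM3 is higher in CER than elsewhere.

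Of the 7 genes, the origins differed by the fold in CER for SOD3 only, in STR for GPX1 only and in PFC for none. In Chinese CER 0 of 7 were higher and 1 was lower, beside 7.81% of all genes higher and 5.57% lower. In STR 1 was higher and 0 lower, beside 19.1% and 4.01% of all genes, and in PFC 0 were higher and 0 lower, beside 8.14% and 4.86%. Over 7 genes, these counts were near the shares of all genes. The median log2 ratio of the 7 was 0.02 in CER, 0.26 in STR and 0.21 in PFC, beside medians of 0.10, 0.31 and 0.19 over all genes. In CER 2 of the 7 lay above the median of all genes, in STR 3 and in PFC 4.

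SOD3 had a lower value in Chinese CER than in Indian CER, and its values in STR and PFC did not differ by the fold. Its pooled FPKM was 7.02 in Chinese CER against 16.7 in Indian CER, a ratio of 0.422 and a log2 ratio of -1.24 (-1.34 relative to the median of all genes). Of all genes in CER 3.29% had a lower log2 ratio, and of the genes in the same class of mean FPKM (1 of 10 classes of like size) 4.798%. In STR the FPKM of SOD3 was 6.88 in Chinese-origin against 5.20 in Indian-origin monkeys, a log2 ratio of 0.40 (0.09 relative to the median). In PFC it was 5.81 in Chinese-origin against 5.21 in Indian-origin monkeys, a log2 ratio of 0.16 (-0.04 relative to the median). The log2 ratio in CER was below that in STR by a difference of -1.64 and below that in PFC by -1.40, and with 1 pooled value per group this difference was not tested. The value of Indian CER stood above the 5 others, which lay between 5.20 and 7.02.

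Markers of choroid plexus and ependyma, the epithelia of the ventricles, were lower in the same Chinese CER samples. Of the 8 named markers 7 had a row (AQP1 had none), none was at 0 in both origins, and 6 of the 7 were past the fold, all of them lower in Chinese CER. Their summed FPKM was 660.4 in Chinese CER against 2103.7 in Indian CER, of which TTR, the thyroid hormone carrier, made up 639.7 in Chinese CER against 2059.5 in Indian CER. OTX2, a transcription factor and the next most abundant of the list, had 12.7 in Chinese CER against 19.5 in Indian CER. The summed level of the same list was also lower in Chinese PFC, at 10.6 against 29.7 in Indian PFC, and in Chinese STR, at 31.5 against 45.3 in Indian STR, where SOD3 was not lower. These sums are small and mostly TTR, and the markers had no common direction there. Of those that reached an FPKM of 1, 2 of 4 were lower in Chinese STR and 1 of 2 in Chinese PFC. Markers of vessels, whose smooth muscle is a known source of SOD3, summed to 139.8 in Chinese CER against 111.1 in Indian CER over 7 genes, and astrocyte markers to 3652.4 in Chinese CER against 3869.4 in Indian CER over 8 genes. The part of these cells in the SOD3 difference was not tested. In bulk tissue fewer cells of a type and less RNA per cell cannot be told apart.

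GPX1 was higher in Chinese STR than in Indian STR. Its pooled FPKM was 36.4 in Chinese STR against 18.9 in Indian STR, a ratio of 1.92 and a log2 ratio of 0.94 (0.63 relative to the median, still past the fold). Of all genes in STR 92.5% had a lower log2 ratio, and of those in the same class of mean FPKM 97.6%. In CER the FPKM of GPX1 was 13.2 in Chinese-origin against 11.1 in Indian-origin monkeys, a log2 ratio of 0.25 (0.15 relative to the median). In PFC it was 40.5 in Chinese-origin against 34.4 in Indian-origin monkeys, a log2 ratio of 0.24 (0.04 relative to the median). The log2 ratio in STR exceeded that in PFC by 0.71, or by 0.59 with the medians subtracted, and this difference was not tested either. With 36.4, Chinese STR lay near the PFC values, whereas Indian STR lay between CER and PFC.

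Chinese STR also had higher values for markers of excitatory cortical neurons, in a region where 19.1% of all genes were higher past the fold and the median log2 ratio of all genes was 0.31. Of 8 such markers, all with a row and none at 0, 6 were past the fold and higher, and the median log2 ratio of the list was 2.23. Their summed FPKM was 2215.5 in Chinese STR against 1829.7 in Indian STR, a sum made up mostly of NRGN, which striatal neurons also express, at 1776.5 in Chinese STR against 1621.4 in Indian STR. CAMK2A, a kinase of excitatory synapses, had 353.8 in Chinese STR against 184.9 in Indian STR. The 6 microglia markers with a row (C1QA and C1QB had none) summed to 215.1 in Chinese STR against 163.7 in Indian STR, with 2 higher past the fold and a median log2 ratio of 0.38, near that of all genes. C1QC, a complement component and the most abundant of them, had 92.1 in Chinese STR against 72.1 in Indian STR. The 7 endothelial and mural markers with a row (PECAM1 had none) summed to 267.8 in Chinese STR against 171.5 in Indian STR, with 2 higher past the fold and a median log2 ratio of 0.55. RGS5, a pericyte marker, had 154.5 in Chinese STR against 93.2 in Indian STR. Markers of striatal projection neurons summed to 3714.3 in Chinese STR against 3383.5 in Indian STR, with none of 8 past the fold. Red blood cells are rich in GPX1, catalase and peroxiredoxins, and of their 7 markers with a row (HBA1 had none) HBA2, SLC4A1 and CA1 were listed at 0 in STR. HBB, a chain of haemoglobin, had 80.9 in Chinese STR against 62.7 in Indian STR. The part of any of these cells in the GPX1 difference was not tested.

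**Figure D2:**
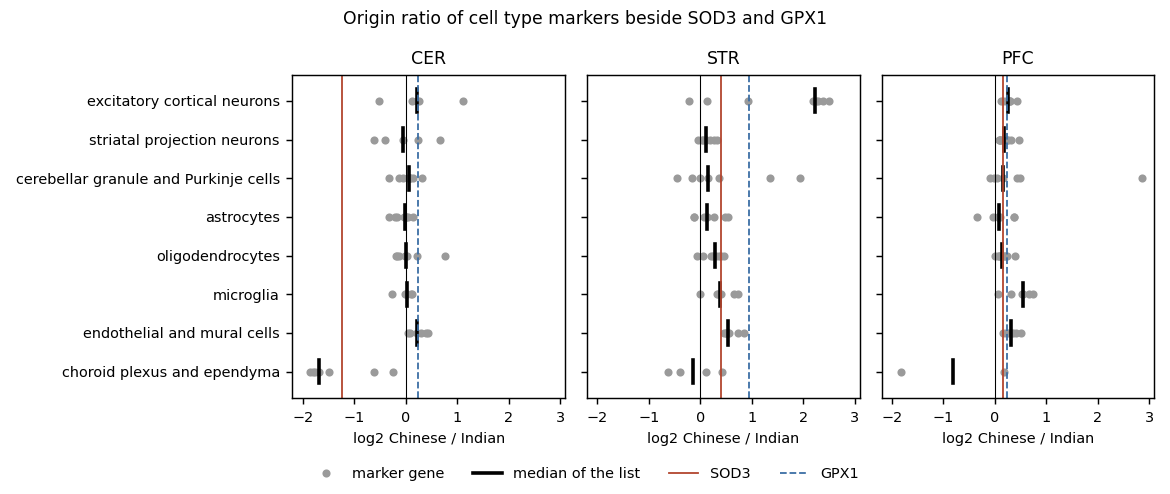
Log2 ratio of Chinese-origin over Indian-origin FPKM (horizontal axes) of single marker genes (grey points) and the median of each marker list (black bars) in CER, STR and PFC, with the ratio of SOD3 as a red line and that of GPX1 as a dashed blue line. In CER SOD3 (-1.24) lies on the side of the choroid plexus and ependyma list (median -1.69). In STR GPX1 (0.94) lies below the median of the excitatory cortical neuron markers (2.23) and above the medians of the other lists. Single excitatory markers lie on both sides of GPX1 in STR.

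PRDX6 was the 1 gene of the 7 with a lower value in Chinese-origin monkeys in all 3 regions. Its pooled FPKM was 127.5 in Chinese CER against 158.8 in Indian CER, a log2 ratio of -0.32. In STR it was 173.0 in Chinese-origin against 188.1 in Indian-origin monkeys and in PFC 149.3 in Chinese-origin against 162.3 in Indian-origin monkeys, with a log2 ratio of -0.12 in both. Relative to the median of all genes the log2 ratio of PRDX6 was -0.42 in CER, -0.43 in STR and -0.31 in PFC. None of these was past the fold, and 8.57% of all genes in CER, 8.14% in STR and 10.4% in PFC had a lower log2 ratio. Of 15431 genes kept in all 3 regions, 4.0% were lower in Chinese-origin monkeys in each, and 64.0% higher in each.

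GSTM3 had higher values in Chinese STR and PFC and nearly equal values in CER. Its pooled FPKM was 307.0 in Chinese CER against 303.2 in Indian CER, a log2 ratio of 0.02 (-0.08 relative to the median). In STR it was 153.5 in Chinese-origin against 118.8 in Indian-origin monkeys, a log2 ratio of 0.37 (0.06 relative to the median). In PFC it was 146.6 in Chinese-origin against 111.3 in Indian-origin monkeys, a log2 ratio of 0.40 (0.20 relative to the median), which exceeded that of 84.9% of all genes and of 92.4% of the genes in its class of FPKM. None of the 3 was past the fold. GSTM3 has close relatives in the mu class, of which GSTM1 and GSTM4 share 1 row span beside it, so reads that fit several of them may have been split.

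SOD1, GPX4 and CAT differed little between the origins. The log2 ratio of SOD1 was 0.08 in CER, 0.11 in STR and 0.29 in PFC, and relative to the medians it was -0.02, -0.20 and 0.10. GPX4 had a pooled FPKM of 192.1 in Chinese CER against 173.4 in Indian CER, 262.0 in Chinese STR against 232.8 in Indian STR, and 265.2 in Chinese PFC against 228.7 in Indian PFC. Its log2 ratios of 0.15, 0.17 and 0.21 became 0.05, -0.14 and 0.02 relative to the medians, so that its direction depended on the scaling in STR. CAT had 9.50 in Chinese CER against 10.7 in Indian CER, 16.5 in Chinese STR against 13.8 in Indian STR, and 11.1 in Chinese PFC against 10.1 in Indian PFC. Its log2 ratio was -0.17 in CER, 0.26 in STR and 0.14 in PFC, and relative to the medians all 3 were below 0 (-0.27, -0.05 and -0.06).

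**Figure D3:**
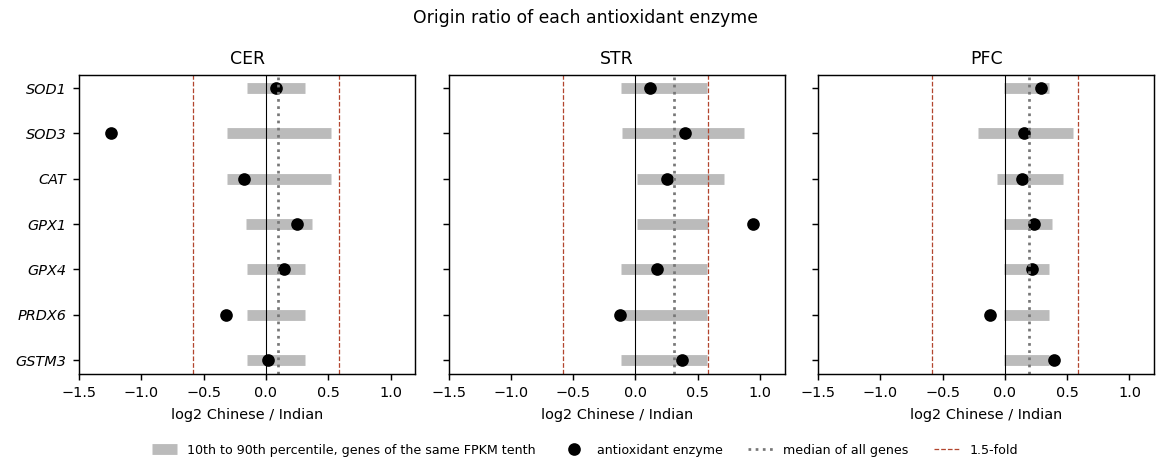
Log2 ratio of Chinese-origin over Indian-origin FPKM (horizontal axes) of the 7 enzymes (black points) in CER, STR and PFC, with the range from the 10th to the 90th percentile of the genes in the same class of mean FPKM (grey bars), the median of all genes (dotted line) and the 1.5-fold limits (dashed red lines). SOD3 in CER (-1.24) and GPX1 in STR (0.94) are the points past the fold, and PRDX6 lies below 0 in each region.

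Across regions, GSTM3 was higher and GPX1 lower in the cerebellum, in monkeys of both origins. The 3 tables were normalized separately, so levels set across them are a description, and over all genes the median log2 ratio of CER over PFC was 0.16 in Chinese-origin against 0.24 in Indian-origin monkeys. That of CER over STR was 0.11 in Chinese-origin against 0.30 in Indian-origin monkeys, and that of STR over PFC 0.06 in Chinese-origin against -0.02 in Indian-origin monkeys. The same 6 monkeys gave all 3 regions. By the study's methods the 6 libraries of a region shared 1 sequencing lane, so region and lane cannot be told apart. GSTM3 was 2.09 times as high in CER as in PFC in Chinese-origin monkeys and 2.72 times in Indian-origin monkeys, and 2.00 times in Chinese-origin and 2.55 times in Indian-origin monkeys as high in CER as in STR. GPX1 was 3.05 times lower in CER than in PFC in Chinese-origin monkeys and 3.07 times lower in Indian-origin monkeys, and 2.74 times lower in Chinese-origin and 1.69 times lower in Indian-origin CER than in STR. Of the 7 genes, 1 was higher and 1 lower past the fold in both origins in CER over PFC, beside 24.8% and 14.1% of all genes. The counts for CER over STR were the same, beside 24.5% and 15.4%, and for STR over PFC they were 0 and 0, beside 9.34% and 9.22%.

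With the medians of all genes subtracted, GPX4 also passed as lower in CER than in PFC, and CAT as lower in CER than in STR. The other enzymes did not pass in both origins. CAT was 1.49 times as high in STR as in PFC in Chinese-origin and 1.37 times in Indian-origin monkeys, just short of the fold, and in CER it was 1.73 times lower than in STR in Chinese-origin and 1.28 times lower in Indian-origin monkeys. GPX4 was lower in CER than in PFC, by 1.38 times in Chinese-origin and 1.32 times in Indian-origin monkeys. PRDX6 was 1.16 times as high in STR as in PFC in both origins. SOD1 stayed within 1.13 times between any pair of regions in either origin. SOD3 was 1.203 times as high in CER as in PFC in Chinese-origin monkeys, but 3.17 times in Indian-origin monkeys. GPX1 was 1.11 times lower in STR than in PFC in Chinese-origin monkeys, but 1.82 times lower in Indian-origin monkeys.

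**Figure D4:**
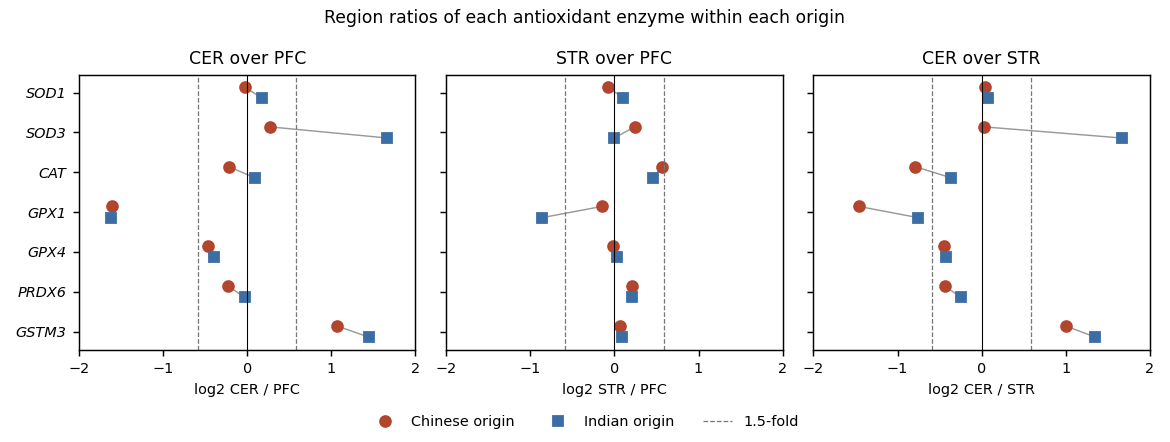
Log2 ratio between regions (horizontal axes: CER over PFC, STR over PFC and CER over STR) of the 7 enzymes within Chinese-origin (red circles) and Indian-origin monkeys (blue squares), joined by grey lines, with the 1.5-fold limits dashed. GPX1 and GSTM3 lie past the fold on the same side in both origins wherever CER is compared, while SOD3 passes in Indian-origin monkeys only.

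The 3 genes with the widest range over the 6 values were GPX1 (3.64-fold from lowest to highest), SOD3 (3.22-fold) and GSTM3 (2.76-fold). Likeness of pattern was measured as the root mean square difference of log2 FPKM, each gene centred on its own mean, over 8971 named genes that reached an FPKM of 5 in all 6 values. The genes most like GPX1 were ARNT2, a transcription factor (difference 0.104), and TIMP-2, an inhibitor of metalloproteinases (0.107). ARNT2 had an FPKM of 66.7 in Chinese STR against 39.2 in Indian STR. The genes most like SOD3 were the row of the microRNA gene mml-mir-1224 (0.153), with 74.3 in Chinese CER against 221.3 in Indian CER, and GBE1, the glycogen branching enzyme (0.228), with 14.6 in Chinese CER against 21.1 in Indian CER. CEBPG, a transcription factor (0.043), and CSNK1G3, a casein kinase (0.050), were most like GSTM3. With 6 values and so many genes, such likeness is a description.

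Other antioxidant genes, 59 named from the same pathways, were compared in the same way. Of these, 55 had a row, and 48 in CER, 48 in STR and 47 in PFC reached an FPKM of 1 in either origin. In CER 1 of 48 was higher and 0 lower past the fold, in STR 1 of 48 higher and 0 lower, and in PFC 4 of 47 higher and 0 lower, beside the shares of all genes given above. With the median of all genes subtracted, the count in STR became 0 higher and 1 lower (NQO1). The median log2 ratio of the list was 0.05 in CER, 0.20 in STR and 0.18 in PFC, each below the median of all genes. Of the 46 genes kept in all 3 regions, 26 had higher Chinese-origin values throughout and 3 had lower ones (56.5% and 6.52%). Over all genes kept in all 3 regions these shares were 64.0% and 4.0%.

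The genes past the fold were GPX7, TXNIP, MT2A, MGST2 and MSRB2. GPX7, a glutathione peroxidase relative of the endoplasmic reticulum, had a pooled FPKM of 3.72 in Chinese CER against 2.20 in Indian CER (log2 ratio 0.73) and of 2.71 in Chinese PFC against 1.43 in Indian PFC (0.88). In STR it had 2.42 in Chinese-origin against 1.75 in Indian-origin monkeys (0.45) and did not pass. Relative to the medians its log2 ratio was 0.63 in CER, 0.14 in STR and 0.69 in PFC. TXNIP, which binds and inhibits thioredoxin, had 92.8 in Chinese STR against 60.7 in Indian STR (0.61), but 56.8 in Chinese CER against 65.9 in Indian CER (-0.21). TXNIP had 60.0 in Chinese PFC against 42.9 in Indian PFC (0.48, or 0.29 relative to the median) and did not pass there. MT2A, a metal-binding metallothionein, had 6.35 in Chinese PFC against 3.62 in Indian PFC (0.79), but 4.59 in Chinese STR against 5.42 in Indian STR (-0.24). MSRB2, the mitochondrial reductase of oxidized methionine, had 45.9 in Chinese PFC against 29.5 in Indian PFC (0.64), with log2 ratios of 0.45 in CER and 0.58 in STR. MGST2, a microsomal transferase named after its values were seen, had 20.0 in Chinese PFC against 12.9 in Indian PFC (0.63). Relative to the medians the log2 ratio of MT2A was 0.60 in PFC and -0.55 in STR. The row of MT2A overlaps those of MT1B and MT1F, among others. TXNIP in STR and MGST2 and MSRB2 in PFC were no longer past the fold relative to the median (0.30, 0.43 and 0.45).

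By family, the peroxiredoxins had values in both directions. PRDX3 of mitochondria, the one relative with lower values in Chinese-origin monkeys in each region, had 122.2 in Chinese CER against 139.0 in Indian CER, 145.6 in Chinese STR against 167.5 in Indian STR, and 120.5 in Chinese PFC against 125.1 in Indian PFC. Cuffdiff listed its calculation as failed in STR and PFC. PRDX1 had log2 ratios of -0.11 in CER, -0.19 in STR and 0.03 in PFC, and PRDX2, abundant in neurons and red blood cells, of 0.09, 0.14 and 0.10. Relative to the medians these became -0.21, -0.50 and -0.16 for PRDX1 and -0.01, -0.17 and -0.09 for PRDX2. Of the 5 measured genes of glutathione synthesis and reduction, 5 in CER, 4 in STR and 5 in PFC had higher values in Chinese-origin monkeys, with none past the fold, beside 71.1% of all genes with higher values in CER, 87.0% in STR and 83.7% in PFC. Their medians were 0.24, 0.32 and 0.26, or 0.14, 0.01 and 0.07 relative to the medians of all genes. GCLC, the catalytic subunit of the rate-limiting ligase, had 50.1 in Chinese STR against 35.4 in Indian STR (log2 ratio 0.50, or 0.19 relative to the median). Of the 9 measured glutathione transferases, 4 had higher values in Chinese CER, 8 in STR and 8 in PFC, beside the same shares of all genes, and their medians of -0.03, 0.20 and 0.18 each lay below the median of all genes. NQO1, a quinone reductase and a classic target of the transcription factor NRF2, was lowest in log2 ratio of the list in each region. It had a pooled FPKM of 19.1 in Chinese CER against 26.2 in Indian CER (-0.45), 23.9 in Chinese STR against 31.8 in Indian STR (-0.41), and 17.99 in Chinese PFC against 22.7 in Indian PFC (-0.34), none past the fold, and Cuffdiff listed its calculation as failed in all 3 regions. Relative to the medians its log2 ratio was -0.55 in CER, -0.72 in STR, which is past the fold, and -0.53 in PFC. NFE2L2, the gene of NRF2 itself, had log2 ratios of -0.09, 0.04 and 0.14, or -0.19, -0.27 and -0.06 relative to the medians. For NFE2L2, too, Cuffdiff listed the calculation as failed in all 3 regions. PRDX1, PRDX2, PRDX3, GCLC, NQO1 and NFE2L2 were named after their values were seen.

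**Figure D5:**
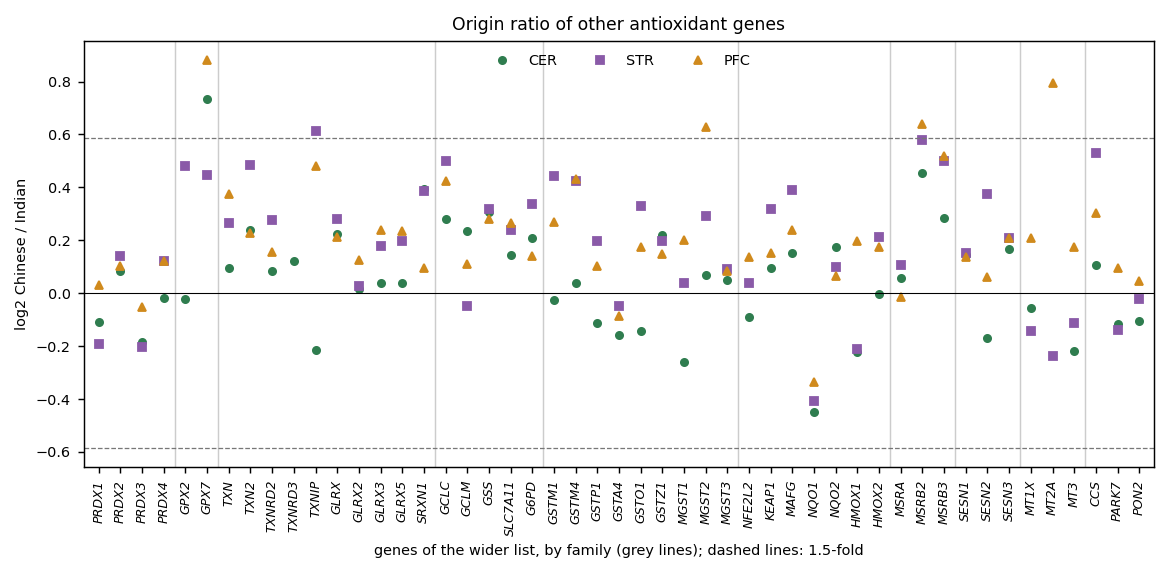
Log2 ratio of Chinese-origin over Indian-origin FPKM (vertical axis) of the other antioxidant genes that reached an FPKM of 1 in either origin, in CER (green circles), STR (purple squares) and PFC (orange triangles), grouped by family between grey lines in the order peroxiredoxins, other glutathione peroxidases, thioredoxin and glutaredoxin system, glutathione synthesis and reduction, glutathione transferases, NRF2 pathway, methionine sulfoxide reductases, sestrins, metallothioneins and others. Most points lie between the dashed 1.5-fold limits, with GPX7 (0.88 in PFC) highest and NQO1 (-0.45 in CER) lowest.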

How the data were processed

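RNA of 18 libraries was sequenced by the authors as single-end reads of 50 bases, all 6 libraries of a region on 1 lane. Per the labels and the study's methods, reads were checked with FastQC, aligned to mmul1 with TopHat and summarised with Cuffdiff (version 0.0.5 per the labels). The authors' deposited table of each region holds 1 FPKM per gene and origin, pooled over 3 monkeys. Its further columns hold the authors' own fold changes, test statistics, p-values and q-values, and these were not used. The study states mean read numbers per origin and region, which were not used here. Counts per gene were not analysed, so the depth behind a value is unknown, and no interval, test or leave-one-out value could be computed. In STR 1 row that repeated an identifier was left out. Number of per-sample columns not used: 0.

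Log2 ratios were computed after addition of 0.1, for genes that reached an FPKM of 1 in any value compared, and called past a fold of 1.5. For classes of mean FPKM, genes were ranked and split into 10 groups of like size. The code was tested on simulated data. Alternatives were pseudocounts of 0 and 1, FPKM minimums of 0 and 5, a difference of 25% and a fold of 2, subtraction of medians, summed rows and rows with a completed test only.

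The genes and lists were chosen with earlier results of these data known. Named are the 10 enzymes, of the wider list the 3 largest changes per region and direction past the fold, up to 2 of the most abundant markers of a cell type list with those at 0, and the 2 genes most alike in pattern. Other genes are said to be named after their values were seen. One marker of the red blood cell list is not reported here. Sequences were not used here. Python 3.11.15, numpy 2.4.6, pandas 2.3.3 and matplotlib 3.10.9 were used.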

Additional observations from a re-analysis of the deposited data

How the results depend on the processing

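The log2 ratios of the 7 enzymes in 3 regions (21 values) moved by less than 0.1 under another pseudocount, another FPKM minimum, summed rows of a symbol or rows with a completed test only. With the median of all genes subtracted 14 of them moved further, and with the median of the same FPKM class 17, but SOD3 in CER (-1.34 and -1.36) and GPX1 in STR (0.63 and 0.66) stayed past the fold and no value past the fold changed sign. Between regions GPX4 in CER over PFC and CAT in CER over STR passed as well under the first subtraction. The median log2 ratio of the 7 became -0.054 and -0.013 in STR and 0.020 and 0.025 in PFC with these subtractions. At a difference of 25%, enzymes past the fold between origins numbered 3 in STR (GPX1, GSTM3 and SOD3, beside 48.0% of all genes higher) and 1 in PFC (GSTM3, beside 22.4%). Between regions they numbered 1 for STR over PFC (CAT, higher, beside 18.6% of all genes) and 4 for CER over STR (1 higher and 3 lower, beside 36.2% and 21.0%). At a fold of 2 the count was 0 in STR, beside 6.89% of all genes higher and 3.07% lower. It was also 0 for CER over STR, beside 13.1% and 9.89%. For the wider list the count in CER was 0 with a pseudocount of 1, 2 with no filter, 0 with a minimum of 5, 4 at a difference of 25% (3 higher and 1 lower, beside 15.9% and 8.5% of all genes) and 0 at a fold of 2. In STR it was 2 with no filter, 3 with the class median subtracted (HMOX1, MT2A and NQO1, all lower), 16 at a difference of 25% (15 higher and 1 lower of 48, beside 48.0% and 5.19%) and 0 at a fold of 2. In PFC it was 2 with either median subtracted, 10 at a difference of 25% (9 higher and 1 lower of 47, beside 22.4% and 6.59%) and 0 at a fold of 2. At a fold of 2, 4.67% of all genes were higher and 3.74% lower in CER. These shares were 6.89% and 3.07% in STR, and 4.56% and 3.57% in PFC. For the settings other than the folds, shares of all genes were not computed. Subtracting the median of all genes shifts every log2 ratio of a region by the same amount, 0.099 in CER, 0.310 in STR and 0.193 in PFC. The 14 enzyme values that moved further were thus those of STR and PFC, by construction. A lower or higher fold also admits more or fewer genes by construction. The cause of the other moves was not tested. No paired analysis was possible because each column pools the 3 monkeys of an origin, and for the same reason no replicate could be left out.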

Other observations

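Other antioxidant genes were also compared between regions. The genes named here were chosen after their values were seen. Of 49 genes of the wider list, 7 were higher and 9 lower in CER than in PFC past a fold of 1.5 in both origins, beside 24.8% and 14.1% of all genes. Of 49, 8 were higher and 17 lower in CER than in STR, beside 24.5% and 15.4%, and of 48, 6 were higher and 4 lower in STR than in PFC, beside 9.34% and 9.22%. The 3 metallothioneins, small proteins that bind zinc and copper, were all lower in CER than in STR and PFC in both origins. For MT2A this rests on CER values below an FPKM of 1, 0.359 in Chinese-origin against 0.631 in Indian-origin monkeys. The row of MT2A also overlaps those of MT1B and MT1F, among others. MT3, the brain form, had a pooled FPKM of 470.5 in CER, 1329.2 in STR and 1630.9 in PFC of Chinese-origin monkeys, against 548.1 in CER, 1436.9 in STR and 1443.3 in PFC of Indian-origin monkeys. GPX2, a glutathione peroxidase best known from gut epithelium, had 9.71 in STR and 0.621 in PFC of Chinese-origin monkeys, against 6.93 in STR and 0.540 in PFC of Indian-origin monkeys. PRDX1, a cytosolic peroxiredoxin, was 1.60 times as high in STR as in PFC in Chinese-origin and 1.87 times in Indian-origin monkeys. MSRA, which repairs oxidized methionine, was 2.87 times as high in CER as in STR in Chinese-origin and 2.97 times in Indian-origin monkeys. None of these differences was tested, and region and sequencing lane cannot be told apart in them.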
